A study of Mus musculus with 24 samples.

Results

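*Baf250a* knockdown (KD) myoblasts were compared with myoblasts carrying a scrambled control shRNA (scr) while both were grown with copper (Cu). The comparison used the 4 libraries whose titles name *Baf250a* KD or scr with Cu, 2 in each group, of 24 libraries in the series. The same contrast in cells with no added metal (NT), 4 other libraries, was set beside it to find the stress genes that differed with Cu and not without, and the reverse. All 8 libraries came from mouse myoblasts that had been transduced with lentiviral shRNA and selected with puromycin. Copper was given as 100 µM CuSO4 for 48 h, and the 2 replicates of each group were independent biological replicates. The study describes the cells as C2C12, an established mouse muscle cell line, where the labels call them primary. Each line is a stable, selected population rather than a clone. The KD and scr populations were made separately, so an effect of the shRNA and any other difference between the populations cannot be told apart. Cells without any shRNA were not analyzed here.

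Baf250a, encoded by *Arid1a*, is the DNA-binding subunit that defines the canonical BAF form of the SWI/SNF chromatin remodelers, which slide or evict nucleosomes at enhancers and promoters. Copper is both an enzyme cofactor and a toxic metal. Excess Cu is met by several transcriptional programs: MTF1 induces metallothioneins that bind the metal, NRF2 induces glutathione and NADPH enzymes once its repressor KEAP1 is modified, HSF1 induces chaperones, and ATF4 drives the integrated stress response when eIF2α is phosphorylated. Lists of these and related programs, 17 in all with 546 genes in the count table, were followed.

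The study lists a pair of shRNAs against *Arid1a*, and does not say which was used for the sequenced cells. Their 21-base targets are shown because they mark where the targeted transcript can be cut. Both matched *Arid1a* and no other gene among GENCODE M21 transcripts (GRCm38, chromosome 4, 133679008 to 133756769, minus strand). The first lies in the 3′ UTR, in exon 20 of 20 (chr4:133679414-133679434), and the second in the coding sequence, in exon 8 (chr4:133694042-133694062).
shRNA1 target: ctttatagtatggcgagttaa
shRNA2 target: cctaggcagcctaactataat

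The targeted transcript was lower in the KD cells. With Cu, *Arid1a* was at 114 and 110.3 CPM (counts scaled to the library's total, with TMM normalization) in the KD libraries and 300.0 and 263 CPM in the scr libraries. The groups did not overlap, and the log2 fold change was -1.30 (SE 0.11, adjusted p = 9.07e-05) by edgeR's quasi-likelihood test, with Benjamini-Hochberg adjustment over all genes tested. Without Cu it was 99 and 96.5 CPM in KD and 267 and 281 CPM in scr, a log2 fold change of -1.53 (SE 0.10), and the test of the difference between the contrasts did not pass (0.21 on the log2 scale, SE 0.14, unadjusted p = 0.161). In the Cu contrast 10 of 27 tested SWI/SNF subunit genes were called, 4 higher and 6 lower (37%), where 41.2% of all genes tested were called. *Smarca2*, the alternative ATPase, rose from 4.22 and 4.71 CPM in scr to 19.1 and 17.3 CPM in KD (log2 fold change 2.05, SE 0.16). *Phf10*, a subunit of the PBAF form, fell from 140.3 and 129.8 to 73.5 and 69.4 CPM (log2 fold change -0.89). *Actl6a* and *Smarcd3*, subunits shared among forms, also fell, with log2 fold changes of -0.81 and -0.86. The paralog *Arid1b* was at 155 and 152 CPM in KD and 142 and 119 CPM in scr and was not called (log2 fold change 0.26, adjusted p = 0.118), and neither was the main ATPase *Smarca4* (374 and 389 against 393 and 336 CPM, 0.09 on the log2 scale).

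**Figure D1:**
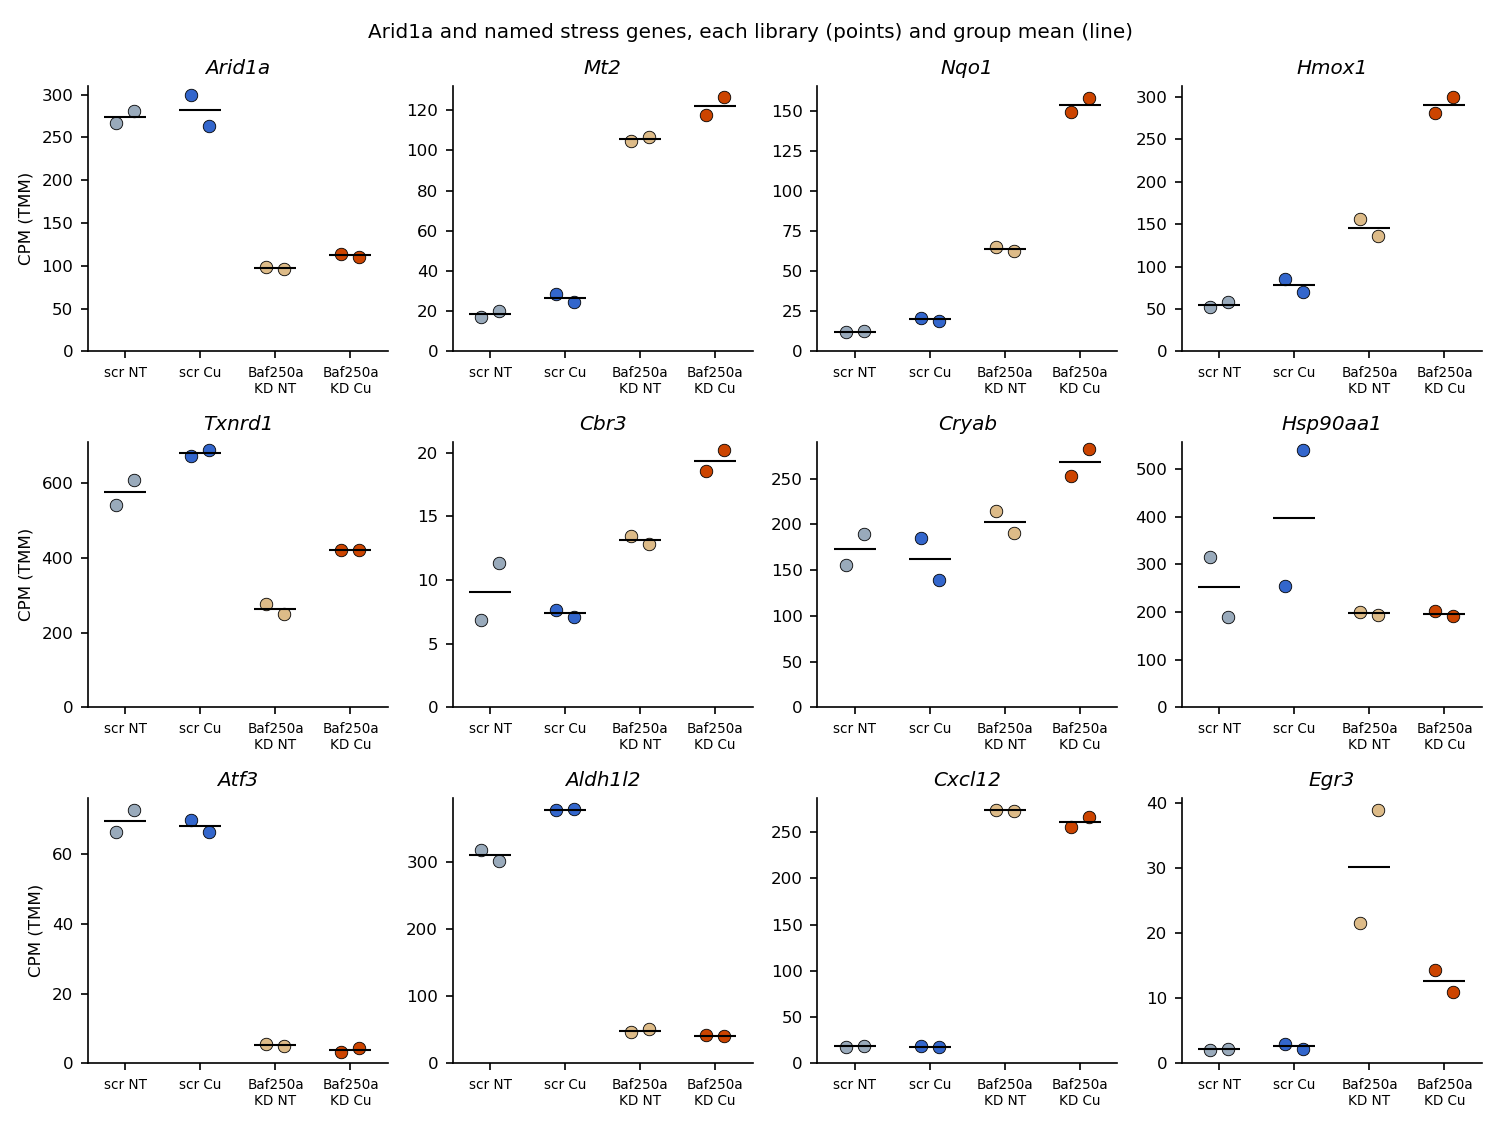
TMM-normalized CPM (linear axis from 0) of *Arid1a* and 11 named stress genes in the 8 libraries, with 1 point per library and a line at each group mean (n = 2). *Arid1a* lies between 96.5 and 114 CPM in the 4 KD libraries and between 263 and 300.0 CPM in the 4 scr libraries, and the 2 scr libraries with Cu are far apart for *Hsp90aa1*.

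The 4 Cu libraries held 16799494 to 44746359 counts, and the 4 untreated libraries 16520069 to 25700122. Replicates of scr differed more than replicates of KD. Pearson's chi-square per degree of freedom between replicates was 31.0 for scr with Cu and 7.38 for KD with Cu, and 37.2 and 7.35 without Cu. This measure grows with depth and was taken with the ribosomal RNA features included, and the part of these was not tested. Spearman correlations between replicates were closer, at 0.988 for scr and 0.995 for KD with Cu, and 0.991 and 0.995 without Cu. Leaving out scr replicate 1 or 2 of the Cu libraries raised the differentially expressed genes (DEGs) of the Cu contrast from 5965 to 8631 or 8615, and leaving out KD replicate 1 or 2 lowered them to 2819 or 3259. Ribosomal RNA features took 4.68% and 1.66% of the counts in the scr libraries without Cu, and at most 0.407% in the other 6. The populations also differed in muscle markers. The 12 myoblast markers summed to 2057 to 2067 CPM in KD and 3884 to 4273 CPM in scr with Cu, and 5 rose and 5 fell. The 24 markers of differentiated muscle summed to 736 to 789 CPM in KD and 3016 to 5609 CPM in scr, and 7 of 22 tested fell while 6 rose. The 10 fibroblast markers summed to 4674 to 4818 CPM in KD and 1226 to 1350.0 CPM in scr, with *Thy1* at 0 in both groups and *Lum* at 0 in scr, and 5 of 7 tested rose. The 8 macrophage markers summed to at most 6.90 CPM in any Cu library and the 8 endothelial markers to at most 5.67 CPM. The 8 adipocyte markers summed to 136 to 137 CPM in KD and 23.4 to 31.5 CPM in scr with Cu, with *Adipoq*, *Plin1* and *Lep* at 0 in both. The 8 neural markers summed to 17.2 to 18.7 CPM in KD and 127 to 140.0 CPM in scr, with *Snap25* and *Sox10* at 0 in both, and the 8 epithelial markers to at most 10.5 CPM. In bulk RNA a change in cell state, in RNA per cell and in the mix of cells cannot be told apart, and the part of these markers in the results below was not tested.

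With Cu, 5965 of 14495 genes tested were DEGs at adjusted p under 0.05 (41.2%), 3061 higher in KD (21.1%) and 2904 lower (20%). Of the 504 stress genes tested, 304 were called, 157 higher and 147 lower, and their median log2 fold change was 0.01 against -0.01 over all genes. The lists moved in different directions. Their counts with Cu, here and below, are to be read beside the 21.1% higher and 20% lower of all genes. The integrated stress response list had 27 of 33 members lower and 3 higher, with a median of -0.89. The heat shock list had 16 of 33 lower and 2 higher (median -0.30), and the DNA damage and repair list 16 of 42 lower and 1 higher (median -0.28). In the other direction, 18 of 27 tested genes of the NF-κB and inflammation list were higher and 2 lower (median 1.02). The NRF2 target list had 19 of 39 higher and 6 lower (0.42), the hypoxia list 14 of 30 higher and 5 lower (0.38), and the p53 target list 16 of 33 higher and 6 lower (0.36). Copper handling genes moved both ways, with 6 of 23 higher and 6 lower (median 0.05). Without Cu the same contrast had 8647 DEGs of 14971 genes tested (57.8%), 4327 higher (28.9%) and 4320 lower (28.9%). Of the 507 stress genes tested there, 175 were higher and 188 lower. Without KD replicate 1 or 2 of the Cu libraries the 304 stress genes called with Cu became 158 or 173.

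**Figure D2:**
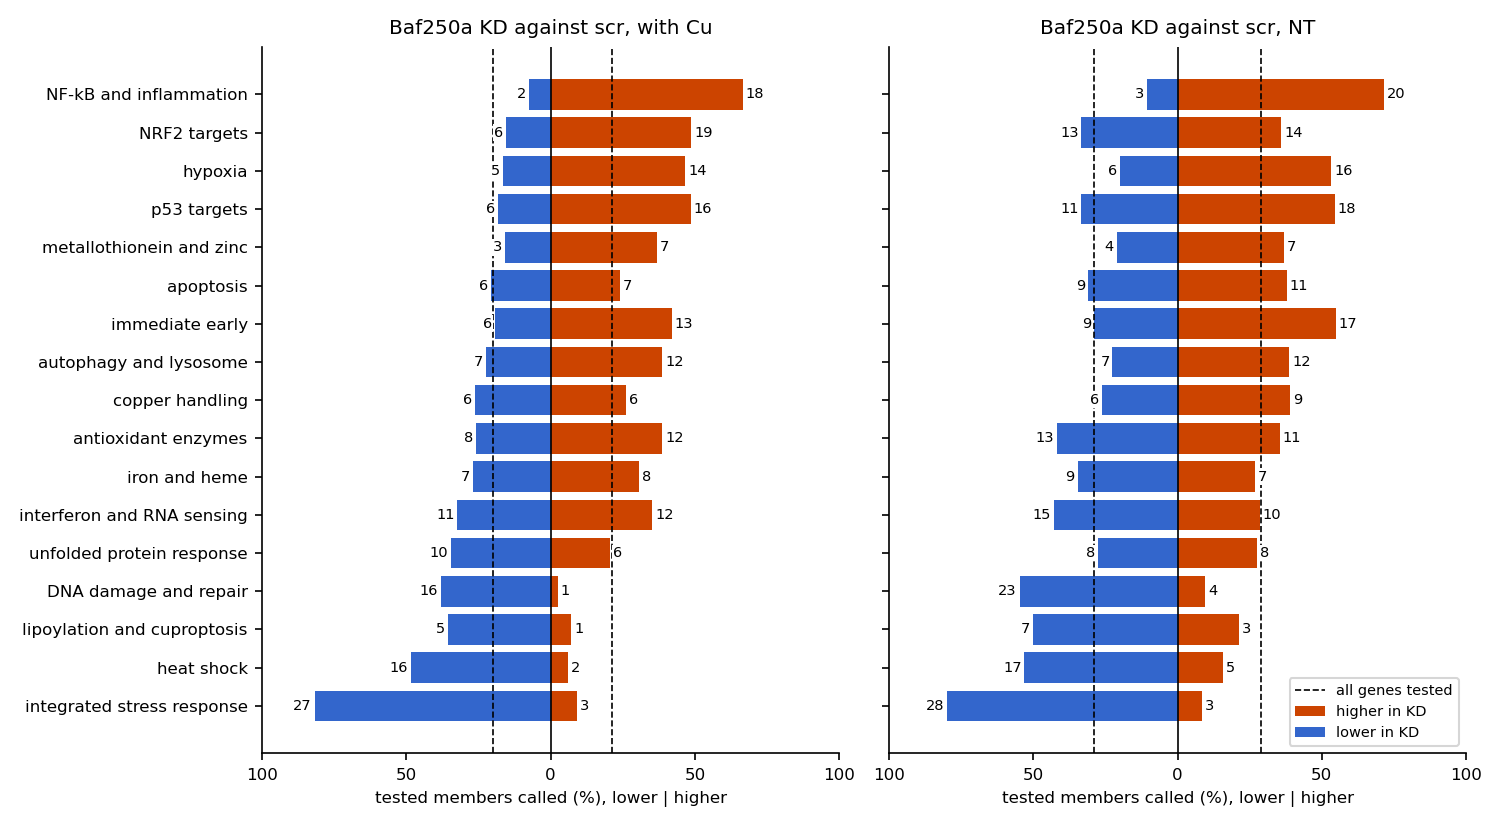
Percentage of the tested members of each stress list that were called higher (red, right) or lower (blue, left) in *Baf250a* KD than in scr, with Cu and without (NT), with the number of genes at each bar end and dashed lines at the percentages of all genes tested. The integrated stress response and NF-κB lists stand at the 2 ends in both panels, and the NRF2 list has 19 higher and 6 lower members with Cu and 14 higher and 13 lower without.

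Metallothionein genes were higher in the KD cells with and without Cu. *Mt1* (chromosome 8, 94179082 to 94180327), a metal-binding protein that buffers zinc and Cu, was at 322 and 317 CPM in KD and 85.4 and 61 CPM in scr with Cu, and the log2 fold change was 2.16 (SE 0.17, adjusted p = 4.94e-05). *Mt2* (chromosome 8, 94172664 to 94173568) was at 118 and 127 CPM in KD and 28.3 and 24.8 CPM in scr (log2 fold change 2.24, SE 0.12). The values without Cu were 2.15 for *Mt1* and 2.46 for *Mt2*, and the differences between the contrasts were -0.01 (SE 0.21) and -0.25 (SE 0.16). Their activator *Mtf1* was lower in KD, at 37.5 and 36.5 against 50.5 and 48.5 CPM (log2 fold change -0.39, adjusted p = 0.0233). The zinc exporter *Slc30a1* rose by 0.89 on the log2 scale, while *Slc30a4*, which moves zinc into vesicles, fell from 255 and 292 to 117 and 112 CPM. The zinc importer *Slc39a6* fell as well (-0.72), and the importer *Slc39a10* was not called (42.1 and 38.7 against 45.4 and 39.8 CPM). In the zinc list as a whole 7 of 19 tested genes were higher and 3 lower.

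The main importer and exporter of Cu were not called with Cu. *Slc31a1*, the main Cu importer, was at 76.7 and 68.1 CPM in KD and 79 and 64.1 CPM in scr, a log2 fold change of 0.05 (SE 0.14). *Atp7a*, the Cu-exporting ATPase, was at 55.1 and 48 against 43.7 and 45.6 CPM (0.24, adjusted p = 0.145), and was called without Cu (0.52, adjusted p = 0.00397). The difference between these values was -0.30 (SE 0.18, unadjusted p = 0.123). Among other genes that use or carry Cu, the secreted lysyl oxidase family member *Loxl3* rose from 32.7 and 35.2 to 145 and 155 CPM and the metalloreductase *Steap2* from 52 and 54.2 to 98.5 and 93.9 CPM. *Slc25a3*, which brings Cu and phosphate into mitochondria, fell from 932 and 812 to 462 and 451 CPM, and *Commd1*, which helps to traffic Cu ATPases, from 26.4 and 30.7 to 15.9 and 18 CPM. Of 14 genes for protein lipoylation and its targets, the machinery to which Cu binds in cuproptosis, 5 were lower and 1 was higher. *Gcsh*, a lipoylated protein of glycine cleavage, fell (-0.81) as did *Pdhx* of the pyruvate dehydrogenase complex (-0.54), and *Pdha1*, another subunit of it, rose (0.50).

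NRF2 targets differed in both directions. *Nqo1* (chromosome 8, 107388225 to 107403206), a quinone reductase, was at 149 and 158 CPM in the KD libraries and 20.7 and 19.1 CPM in the scr libraries with Cu, and the log2 fold change was 2.98 (SE 0.12, adjusted p = 1.81e-06). *Aldh3a1*, an aldehyde dehydrogenase, was at 62.7 and 59.8 against 8.38 and 7.39 CPM (log2 fold change 3.0). *Hmox1* (chromosome 8, 75093621 to 75100589), which degrades heme, rose from 85.7 and 70.1 to 281 and 301 CPM (1.93, SE 0.13), and *Gclm*, the modifier subunit of the glutathione-making ligase, from 34.5 and 39 to 83 and 74.6 CPM (1.13). The glutathione transferase *Gstm1* rose by 2.00 on the log2 scale. Other members of the same program were lower in KD. *Gsta4*, a transferase for lipid aldehydes, was at 230.1 and 224 CPM in KD and 590.3 and 461 CPM in scr (-1.18, adjusted p = 5.19e-04). *Slc7a11*, the cystine importer, fell from 35.3 and 43.1 to 13.4 and 15 CPM, and *Txnrd1*, which reduces thioredoxin, from 675 and 689 to 421 and 421 CPM. *Gsta2* was lower too (1.66 and 1.18 against 6.76 and 6.36 CPM), although near-identical Gsta copies make its uniquely mapped counts uncertain. In the antioxidant list 12 of 31 genes were higher and 8 lower: extracellular *Sod3* rose (2.51) and glutaredoxin *Glrx* rose (1.72), while *Prdx5* (-0.54) and the Cu/Zn enzyme *Sod1* (-0.48) fell. For iron and heme 8 of 26 genes were higher and 7 lower (30.8% and 26.9%, against 21.1% and 20% of all genes). The heme synthesis enzymes *Cpox* and *Urod* were lower (-1.35 and -1.19). The iron exporter *Slc40a1* and the ferrireductase *Steap3* were higher (0.56 and 0.53).

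Of the 33 heat shock genes tested, 16 were lower in KD and 2 were higher. *Hspb8* and *Hspb1*, small heat shock proteins, were at 47.9 and 47.4 and at 103 and 118 CPM in the KD libraries with Cu, against 237 and 194 and 438 and 325 CPM in scr. Their log2 fold changes were -2.15 and -1.76 (adjusted p = 1.42e-05 and 1.33e-04). The related *Cryab* rose, from 186 and 139.7 to 253 and 283 CPM (0.75, SE 0.15). Several small heat shock proteins are also abundant in differentiating muscle, whose summed markers were lower in KD as given above, and the part of these in the result was not tested. In the unfolded protein response list 6 of 29 genes were higher and 10 lower (20.7% and 34.5%, against 21.1% and 20% of all genes). The lumenal chaperone *Calr* rose (0.77) and so did *Dnajc3* (0.55). The sensor kinase *Eif2ak3* (PERK) fell from 114 and 109 to 31.7 and 32.3 CPM and *Wfs1* from 124 and 99.7 to 42.4 and 46.1 CPM. The integrated stress response list had the lowest median of the 17 stress lists. *Atf3* (chromosome 1, 191170296 to 191218039), a stress-induced transcription factor, was at 3.37 and 4.26 CPM in KD and 69.9 and 66.3 CPM in scr with Cu, and the log2 fold change was -4.14 (SE 0.16, adjusted p = 1.69e-06). *Aldh1l2*, a mitochondrial folate enzyme, was at 41.7 and 40.6 against 379 and 379 CPM (-3.17, SE 0.11). *Eif2ak4*, the amino acid sensor kinase GCN2, was among the 3 higher members (54.4 and 49.8 against 35.1 and 37.9 CPM). The list median was -1.11 without Cu, where 28 of 35 members were lower.

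Among p53 targets, *Trp53inp1* rose from 20.2 and 27.9 to 88.8 and 84.7 CPM and the extracellular sulfatase *Sulf2* from 118 and 89.6 to 260.2 and 252 CPM, while the kinase *Plk3* fell from 106 and 88.8 to 19.8 and 21.2 CPM (log2 fold change -2.22) and the death receptor *Eda2r* fell by 0.96 on the log2 scale. Of 29 apoptosis genes tested 7 were higher and 6 lower (24.1% and 20.7%), near the 21.1% and 20% of all genes. *Pdcd4*, a translation inhibitor linked to cell death, rose from 9.88 and 13.2 to 33.5 and 34.1 CPM (1.57), the survival gene *Bcl2l1* rose (0.67), and the apoptosome scaffold *Apaf1* fell (-0.88). The Fanconi gene *Fanca* and the end-joining gene *Xrcc6* were 2 of 16 lower DNA repair genes (-0.85 and -0.80), and *Parp3* was the 1 higher (1.02).

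The NF-κB and inflammation list had the highest median of the 17 stress lists. *Cxcl12*, a chemokine, was at 256 and 266 CPM in KD and 18.4 and 17.6 CPM in scr with Cu, and the log2 fold change was 3.89 (SE 0.11, adjusted p = 8.84e-07). *Vcam1*, an adhesion molecule that also marks myoblasts, was at 118 and 112 against 16.1 and 11.8 CPM (3.10). *Tnfaip3*, the feedback inhibitor A20 that NF-κB induces, fell from 64.5 and 62.1 to 19.2 and 19.1 CPM (-1.69, SE 0.11), against the direction of most of its list. *Cxcl12* and *Vcam1* are also made by mesenchymal cells in the absence of inflammation, and summed fibroblast markers were higher in the same libraries (their part was not tested). Hypoxia genes split, with the lysyl oxidase *Lox* higher (1367 and 1319.6 against 209 and 176 CPM) and the glucose transporter *Slc2a1* lower (211 and 211 against 621 and 497 CPM). The transcription factor *Bhlhe40* rose from 77.2 and 57.5 to 197 and 175 CPM and *Loxl2*, of the lysyl oxidase family, fell (-1.73). Immediate early genes, which growth factors and stress switch on within minutes, had 13 of 31 higher, among them *Klf4* and *Junb* (2.08 and 1.59), and 6 lower, among them *Jund* and *Dusp4* (-1.27 and -1.17). Interferon and RNA-sensing genes were 12 higher and 11 lower of 34: *B2m* and *Tapbp*, of antigen presentation, rose (1.01 and 0.91), and *Stat2* and *Irf3*, of interferon signaling, fell (-0.68 and -0.51). The lysosomal glucosidase *Gaa* and the autophagosome factor *Wipi1* rose (0.89 and 0.80), and the protease *Ctsl* and the LC3 gene *Map1lc3a* fell (-1.08 and -0.95), among 12 higher and 7 lower of 31 autophagy and lysosome genes.

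Most stress genes behaved alike in the Cu and NT contrasts. The contrasts share no library. Across the 503 stress genes tested in both, the Pearson correlation of the log2 fold changes was 0.96 (0.92 across all 14313 genes tested in both), and 453 had the same sign (90.1%, against 86.4% of all). These are descriptions across genes, which are not independent replicates. Of the 503, 279 were called in both contrasts in the same direction (55.5%, against 38.5% of all genes), 0 in opposite directions (3 of all genes, 0.021%), 118 in neither, 25 with Cu alone (4.97%, against 2.8%) and 81 without Cu alone (16.1%, against 20.2%). The Cu contrast was the noisier, with a biological coefficient of variation of 0.122 against 0.0949.

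**Figure D3:**
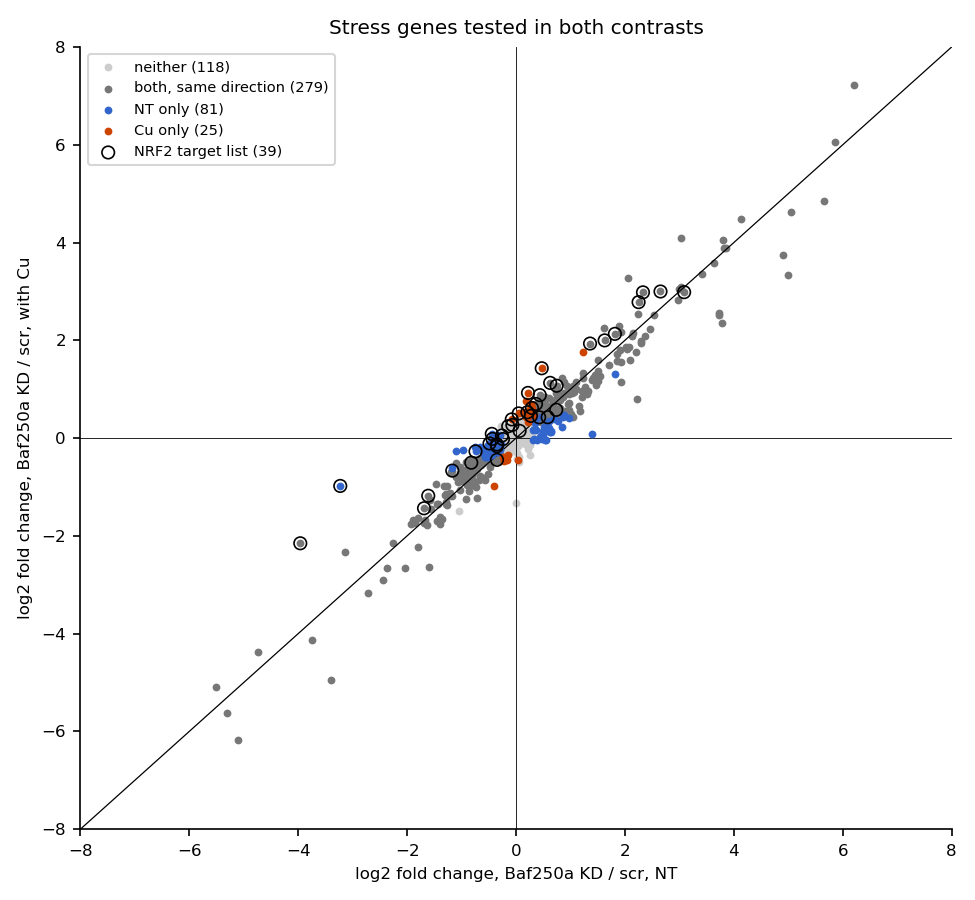
Log2 fold change of *Baf250a* KD over scr without metal (NT, x axis) and with Cu (y axis) for the 503 stress genes tested in both contrasts, colored by the contrast in which they were called, with the 39 NRF2 list members ringed and a line of equality. The points follow the line, most Cu-only and NT-only genes lie near 0 on both axes, and most ringed genes lie above the line.

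The 25 stress genes called with Cu alone were 16 higher and 9 lower in KD. The higher were *Cbr3*, *Blvrb*, *Cbr1*, *Abcc1*, *Pgd* and *Esd* of the NRF2 list, *Cryab*, *Prdx2*, *Slc39a11*, *Flvcr2*, *Alas1*, *Ppox*, *Irf1*, *Bst2*, *Tfeb* and *Optn*, and the lower were *Hsp90aa1*, *Hspa5*, *Canx*, *Ern1*, *Tfrc*, *Cgas*, *Rad50*, *Cox11* and *Nbr1*. *Cbr3*, a carbonyl reductase, was at 18.6 and 20.2 CPM in KD and 7.63 and 7.11 CPM in scr with Cu, and at 13.4 and 12.8 and 6.87 and 11.3 CPM without. Its log2 fold change was 1.43 with Cu (adjusted p = 1.94e-04) and 0.47 without (adjusted p = 0.0582), where the scr replicates were far apart. *Esd*, an esterase of formaldehyde detoxification, was at 427 and 448 against 332 and 297 CPM with Cu and 241 and 232 against 203 and 241 CPM without. *Tfrc*, which takes up transferrin-bound iron, was at 191 and 194 CPM in KD and 228 and 309 CPM in scr with Cu (-0.45, adjusted p = 0.0402), and its values without Cu gave 0.03. *Pgd*, a NADPH-making enzyme of the pentose phosphate pathway, was at 302 and 316 against 261 and 224 CPM (0.38) and at -0.08 on the log2 scale without Cu. *Hsp90aa1*, the inducible cytosolic HSP90, was at 202 and 191 CPM in KD and 255 and 539 CPM in scr, so that its fold change of -0.99 went to -0.36 without scr replicate 2 and to -1.42 without scr replicate 1. Of the 25 genes, 23 had the same sign in the NT contrast. Just 2 (*Blvrb* and *Cbr1*, chosen after their values were seen) kept this status under all 12 other settings that keep these 8 libraries. Once GC content and gene length were corrected for, 9 of the 25 kept it and 14 were called in both contrasts. Without KD replicate 1 or 2 of the Cu libraries 3 or 1 of the 25 kept it, and without scr replicate 1 or 2 of the NT libraries 25 or 12. The number of genes in this class was 80 or 52 without scr replicate 1 or 2 of the Cu libraries and 70 or 65 without KD replicate 1 or 2 of the NT libraries.

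The 81 stress genes called without Cu alone included 8 of the NRF2 list (*Nfe2l2*, *Keap1*, *Srxn1*, *Prdx6*, *Gsr*, *Gsta1*, *Gstp1* and *Osgin1*) of its 39 tested, 11 of 42 for DNA damage and repair, and 7 each of 33 p53, 29 apoptosis and 31 immediate early genes, where 20.2% of all genes were in this class. *Srxn1*, which repairs oxidized peroxiredoxins, was at 116 and 103 CPM in KD and 170.3 and 185 CPM in scr without Cu (-0.74, adjusted p = 6.32e-05), and at 197 and 204 and 256 and 237 CPM with Cu (-0.27, adjusted p = 0.0709). Glutathione reductase, *Gsr*, was at 73.9 and 71.2 against 95.9 and 96 CPM without Cu (-0.45) and 112 and 111 against 118 and 96.2 CPM with it (0.09). The phosphatase *Dusp1*, an immediate early gene, was lower in KD without Cu (-0.75), and its value was -0.18 with Cu (adjusted p = 0.290). *Fosb*, an AP-1 subunit, was at 5.85 and 5.93 against 2.29 and 2.06 CPM without Cu and at 3.01 and 2.25 against 3.01 and 2.20 CPM with it. *Rrm2b*, a p53-induced ribonucleotide reductase subunit, was 0.85 without Cu and 0.23 with it. *Irf7*, an interferon regulatory factor, was also among the 5 with the largest difference, and was under 2.5 CPM in every library. *Gsta1* rested on 0 to 57 counts per library. With Cu 10 of the 81 had the opposite sign, and 7 kept this status under all 12 other settings that keep these 8 libraries. Without KD replicate 1 or 2 of the Cu libraries the class grew to 207 or 190 genes. Without scr replicate 1 or 2 of the Cu libraries it held 53 or 36, and without KD replicate 1 or 2 of the NT libraries 34 or 26.

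Whether a gene's KD effect itself differed between Cu and NT was tested by the interaction in the 8 libraries. No stress gene passed (0 of 509, lowest adjusted p = 0.777 by edgeR's test, and 0 by DESeq2), where 5 of 15492 genes did (0.0323%: *Mir6236*, *Gm15564*, *Gm23935*, *Lars2* and *CT010467.1*, each highest in the scr libraries without Cu). All 5 are among the features removed in the setting without ribosomal RNA, where 0 genes passed. At an unadjusted p under 0.05 there were 55 stress genes, 27 with a higher and 28 with a lower KD effect with Cu, and 925 of all genes (5.97%). The count of stress genes was 9 without scr replicate 1 of the Cu libraries, where 235 genes passed in all, and 10 when every gene with at least 1 count was tested, where 271 passed in all. A call in just 1 of the contrasts is therefore not shown to be a different KD effect in the other. In simulated counts this test recovered 15% of 1.5-fold and 54% of 2-fold changes, so differences of such size could have been missed.

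The NRF2 list leaned one way in these differences. Of its 39 tested genes 34 had a higher KD effect with Cu (87.2%, against 52.8% of all genes), with a median difference of 0.33 on the log2 scale against 0.02. In this direction 17 of the 39 had an unadjusted p under 0.05 (43.6%, against 2.74% of all genes) and 0 had one in the lower direction (3.23% of all genes). The list was chosen with earlier results of these data known, and the study reports *Nqo1* and *Gsta4* as induced by Cu. Its genes are not independent replicates, so these shares are a description. *Nqo1* had the smallest p: its KD effect was 2.98 with Cu and 2.33 without, a difference of 0.63 (SE 0.15, unadjusted p = 0.00137, adjusted p = 0.777). The differences were 1.79 for *Gsta2*, 0.93 for *Cbr3*, 0.68 for *Blvrb*, 0.55 for *Hmox1*, 0.51 for *Gsr*, 0.48 for *Txnrd1*, 0.48 for *Gclm* and 0.45 for *Srxn1*, and these 9 with *Dusp1* were the stress genes of smallest p in this direction. None of these differences passed after adjustment, and *Gsta2* had just 6 and 5 raw counts in KD without Cu and 37 and 20 with Cu. The S phase list had a like share of higher values (26 of 30, 86.7%), with 0 at an unadjusted p under 0.05 in that direction, and the list of G2 and mitosis had 6 of 30 (20%) at that p. Leaving out 1 library at a time kept the list median between 0.28 and 0.45, the lowest without scr replicate 2 and the highest without scr replicate 1 of the Cu libraries. Without scr replicate 1 of the Cu libraries 5 members passed the adjusted threshold (*Gstm1*, *Gsr*, *Hmox1*, *Nqo1* and *Gsta4*), and 0 passed without any other single library.

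In the lower direction, the stress genes of smallest p were the immediate early genes *Egr2*, *Egr3*, *Nr4a1* and *Fosb*, the interferon-stimulated *Ifit1* and *Oasl2*, and *Cp*, *Aldh1l2*, *Dnajb9* and *Birc2*. *Nr4a1*, a nuclear receptor, was at 28.1 and 55.2 CPM in KD without Cu and 15.8 and 13.8 CPM with it, while scr was at 9.22 and 8.14 and 9.48 and 8.12 CPM. *Egr3*, a zinc finger factor, was at 21.5 and 39 CPM in KD without Cu and 14.3 and 11 CPM with it, and the replicates of the former were far apart. *Ifit1*, which binds foreign RNA, was at 0.988 and 0.473 CPM in KD and 26.6 and 21.4 CPM in scr with Cu, and at 1.65 and 1.75 and 19.6 and 15.4 CPM without. *Cp*, the Cu-carrying ferroxidase ceruloplasmin, was 0.43 with Cu and 1.04 without (difference -0.63, unadjusted p = 0.00409). The unfolded protein response list leaned to this side: 28 of 29 differences were below 0, against 7315 of 15492 over all genes. Their median was just -0.11, against 0.02 over all genes. In this direction 2 had an unadjusted p under 0.05 (6.9%, against 3.23% of all genes).

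The same 8 libraries gave the Cu response of each line. In KD 28 of 15492 genes were called for Cu (0.181%, with 0.129% higher and 0.0516% lower), 12 of them stress genes, and in scr 16 genes (0.103%), 1 of them a stress gene. Of the 12, 11 belonged to the NRF2 list and rose (*Nqo1*, *Hmox1*, *Gclc*, *Gclm*, *Slc7a11*, *Txnrd1*, *Srxn1*, *Gsta2*, *Gsta4*, *Abcc4* and *Esd*), and *Nr4a1* fell (-1.48). The 1 in scr was *Gsta4*, and *Gsta2* rested on few counts in KD as given above. Over the 39 NRF2 genes 35 had a higher level with Cu in KD (89.7%, against 50% of all genes). In scr 29 of them did (74.4%, against 47% of all genes). The median response was 0.52 in KD and 0.13 in scr on the log2 scale, against 0 and -0.02 over all genes. As stated above, the list was chosen with earlier results known. *Nqo1* responded by 1.27 (SE 0.10, adjusted p = 7.03e-04) in KD and by 0.64 (SE 0.11, adjusted p = 0.0760) in scr, and *Hmox1* by 1.00 and 0.45. *Srxn1* went from 116 and 103 to 197 and 204 CPM in KD and from 170.3 and 185 to 256 and 237 CPM in scr. *Mt1* and *Mt2* did not pass in either line, with responses of 0.29 and 0.21 in KD and 0.30 and 0.46 in scr. When each line was fitted alone, a setting added after the data were seen, 57 of 501 stress genes (24 of 39 of the NRF2 list) were called by edgeR in KD, where 396 of 14786 genes were (2.68%). In scr 0 of 496 were called, where 3 of 14017 genes were (0.0214%). At an unadjusted p under 0.05 in these fits there were 55 of the 496 in scr, against 5.7% of all genes. In KD there were 153 of the 501, against 15% of all genes. The 12 became 2 without KD replicate 1 and 2 without KD replicate 2 of the Cu libraries, 3 or 0 without KD replicate 1 or 2 of the NT libraries, and 27 or 26 without scr replicate 1 or 2 of the Cu libraries. The 1 in scr became 28 or 2 without scr replicate 1 or 2 of the Cu libraries, and 0 without scr replicate 2 of the NT libraries.

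**Figure D4:**
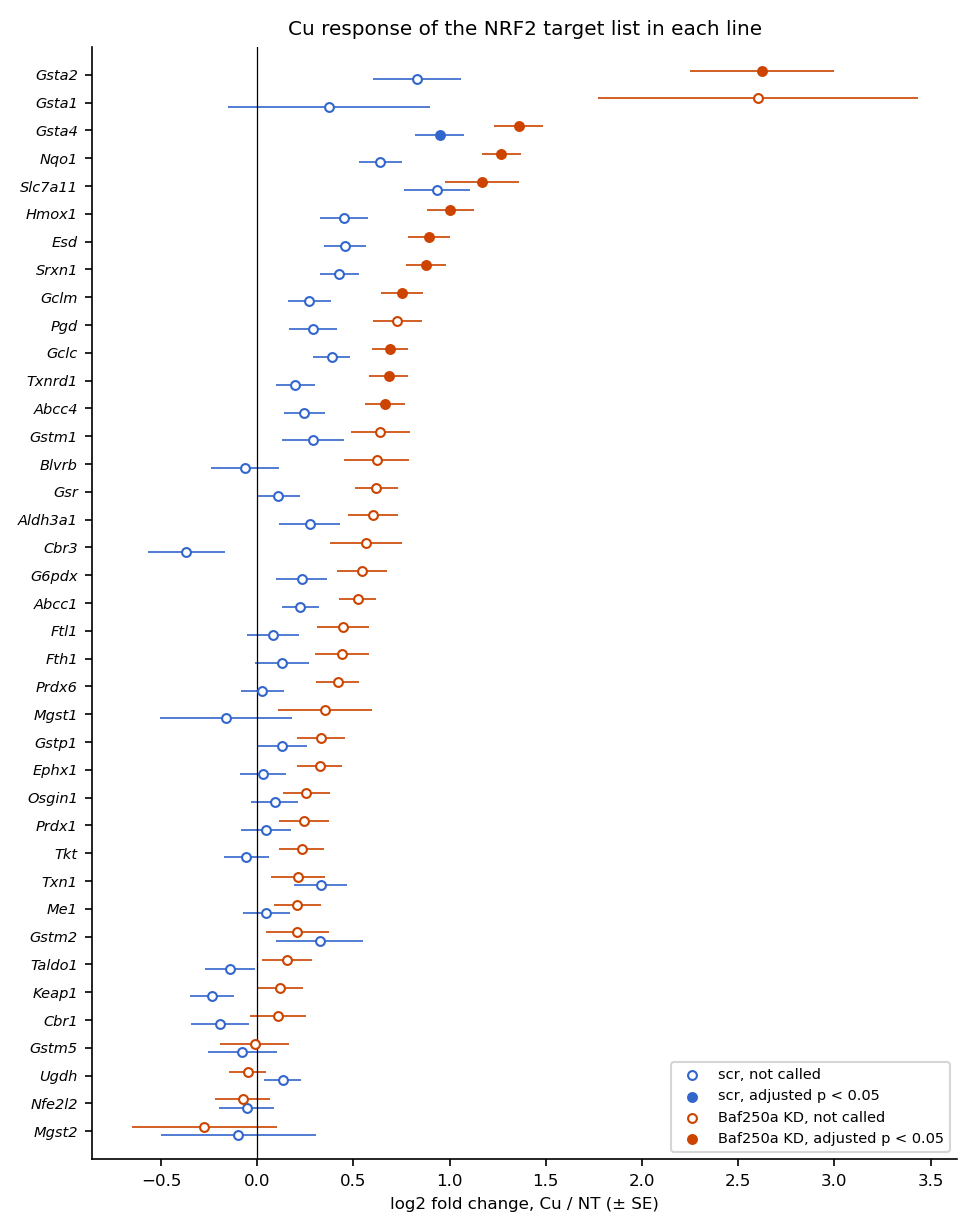
Log2 fold change of Cu over untreated (± SE) for the 39 tested NRF2 list genes in *Baf250a* KD (red) and scr (blue), with filled points where the adjusted p was under 0.05. Filled points are 11 in KD and 1 in scr, and most red points lie to the right of the blue ones.

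The KD was also compared directly with the other SWI/SNF KD lines in Cu, *Baf180* KD of the PBAF form and *Brd9* KD of the non-canonical form. Both comparisons use the same *Baf250a* KD libraries. Against *Baf180* KD 290 of 507 stress genes were called, 138 higher and 152 lower, where 44% of all genes were called (21.9% higher, 22.1% lower), and against *Brd9* KD 360 of 499, 196 higher and 164 lower, where 52.5% were (26.6% higher, 25.9% lower). Without *Baf250a* KD replicate 1 the first count was 184. *Atf3* was lower in *Baf250a* KD than in either, at 3.43 and 4.34 CPM against 29.2 and 25.7 in *Baf180* KD and 23.9 and 29.6 in *Brd9* KD (normalized over all 24 libraries), with log2 fold changes of -2.81 and -2.77. Of the integrated stress response list 22 of 35 genes were lower than in *Baf180* KD and 26 of 34 lower than in *Brd9* KD. *Nqo1* was at 152 and 161 CPM, against 122 and 119 CPM in *Baf180* KD (log2 fold change 0.39, adjusted p = 0.00192) and 74.4 and 76.3 CPM in *Brd9* KD (1.09). For *Hmox1* the log2 fold changes were 0.88 and 1.69. The NRF2 list as a whole went both ways, with 9 higher and 13 lower of 39 against *Baf180* KD and 13 higher and 18 lower against *Brd9* KD. *Mt1* and *Mt2* were not called against *Baf180* KD (0.17, SE 0.10, and -0.0040, SE 0.08), and were higher than in *Brd9* KD (0.52 and 0.40).

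The promoters of 4 genes described above are shown as examples in which the core letters of the factor known for their list were found. They were chosen for having a match and not for the size of their change. Each run is the 250 bases before the annotated start (RefSeq, GRCm38.p6), 5′ to 3′ on the gene's strand. Capitals mark, in each run, only the element of that gene's own list, on either strand. The letters searched were TGACNNNGC (the antioxidant response element bound by NRF2), TGCACNC or TGCGCNC (the metal response element bound by MTF1) and TGATGNAA (the element bound by ATF4 with C/EBP).
Mt2 promoter, chr8:94172368-94172617, plus strand: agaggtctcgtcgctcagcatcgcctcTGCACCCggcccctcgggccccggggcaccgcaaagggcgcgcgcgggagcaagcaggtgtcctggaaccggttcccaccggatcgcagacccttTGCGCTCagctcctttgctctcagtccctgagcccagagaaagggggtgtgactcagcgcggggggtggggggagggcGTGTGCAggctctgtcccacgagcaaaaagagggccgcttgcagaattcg
Gclm promoter, chr3:122245307-122245556, plus strand: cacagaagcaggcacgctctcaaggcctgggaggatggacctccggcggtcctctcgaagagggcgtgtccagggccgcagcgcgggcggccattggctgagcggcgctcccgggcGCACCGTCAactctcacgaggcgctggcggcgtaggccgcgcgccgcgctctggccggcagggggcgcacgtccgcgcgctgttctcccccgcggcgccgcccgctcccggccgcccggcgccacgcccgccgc
Txnrd1 promoter, chr10:82858956-82859205, plus strand: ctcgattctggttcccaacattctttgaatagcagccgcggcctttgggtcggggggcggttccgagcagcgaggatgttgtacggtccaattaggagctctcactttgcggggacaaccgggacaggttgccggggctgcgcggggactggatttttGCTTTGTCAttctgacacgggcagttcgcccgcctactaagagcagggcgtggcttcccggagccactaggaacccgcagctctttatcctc
Atf3 promoter, chr1:191183334-191183583, minus strand: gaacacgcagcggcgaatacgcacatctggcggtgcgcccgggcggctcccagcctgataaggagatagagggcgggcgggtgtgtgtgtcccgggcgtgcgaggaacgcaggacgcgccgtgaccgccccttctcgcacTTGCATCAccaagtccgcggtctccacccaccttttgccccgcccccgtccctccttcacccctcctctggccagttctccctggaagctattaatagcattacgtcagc
The metal element was found 3 times in the *Mt2* window, and the other windows shown have 1 match each of the element of their list. Matches to the other lists' elements are left in lower case: 1 antioxidant match in the *Mt2* window, 2 metal matches in the *Gclm* window, the first of which overlaps the marked letters, and 1 metal match in the *Atf3* window. *Txnrd1* has 3 windows, and 1 of them, shown here, held the antioxidant letters. *Nqo1* and *Gstm1*, which changed more, had 0 antioxidant matches in 1 and 2 windows. Of 32851 promoter windows in the table, 10.2% held the antioxidant letters, 21.4% the metal letters and 3.45% the ATF4 letters. Among NRF2 list genes 33 of 40 had a window, and 11 of their 42 windows held the antioxidant letters (26.2%). The share was higher among immediate early genes (12 of 30, 40%) and copper handling genes (9 of 27, 33.3%). Among zinc genes 13 of 26 windows held the metal letters (50%), near the shares of the hypoxia list (48.5%) and the copper handling list (48.1%). In the integrated stress response list 7 of 37 held the ATF4 letters (18.9%). A match is a description of the letters and not a measured site. *Gclm* was higher and *Txnrd1* lower in KD with Cu, and both have a match to the same letters.

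Over all genes, the 5 largest rises with Cu were genes of the extracellular matrix and its receptors that were almost unread in scr. The laminin chain *Lama4* had 1631 and 1187 raw counts in KD and 1 and 3 in scr, and the collagen *Col2a1* had 903 and 799 against 1 and 3. *Col6a2* had 3539 and 2518 counts against 10 and 12, the adhesion protein *Svep1* 3366 and 2659 against 6 and 16, and the collagen receptor *Itga11* 1108 and 802 against 2 and 5. These rises and the falls that follow were picked among called genes with a mean of at least 20 CPM and no overlap between the groups. The largest falls included the matrix proteases *Mmp12*, with 2 and 1 counts in KD and 969 and 1977 in scr, and *Mmp10*, with 8 and 4 against 1118 and 2306. The actin-binding muscle protein *Xirp2*, *Stmn4* and the adhesion receptor *Adgrg1* were the other 3, with log2 fold changes of -7.37, -5.69 and -5.00. Most of these shifts were not particular to *Baf250a* KD. With Cu, *Col6a2* was at 86.1 and 77.3 CPM in *Baf180* KD and 29.4 and 36.3 CPM in *Brd9* KD, against 0.585 and 0.269 CPM in scr (normalized over all 24 libraries). *Svep1*, *Lama4* and *Itga11* were also above scr in both lines, and *Col2a1* in *Baf180* KD alone. The falling genes named here were below scr in both lines. These differences from scr were not tested.

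A few further genes outside the stress lists were followed, and of these *Islr* and *Wnt4* had the smallest p for a difference between the contrasts. The study had already named both for responses to metal in these same libraries, so their rank is not independent support. *Wnt4*, a secreted Wnt ligand, was at 40.1 and 44.6 CPM in KD and 10.5 and 10.1 CPM in scr with Cu, and at 20.4 and 21.7 and 10.4 and 14 CPM without. The KD effect was 2.08 with Cu and 0.74 without, a difference of 1.32 (SE 0.21, adjusted p = 0.0723). *Islr*, a secreted leucine-rich repeat protein of mesenchymal cells, was at 333 and 326 against 8.84 and 7.95 CPM with Cu, and at 413 and 369.5 against 18.3 and 21.5 CPM without (difference 1.06, adjusted p = 0.0723). *Gpr137b*, a lysosomal membrane protein, had a difference of -0.46 (unadjusted p = 0.0114), and *Hmga2*, a chromatin protein, was not called in either contrast (-0.09 and 0.15).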

How the data were processed

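RNA was sequenced from 24 libraries of mouse myoblasts, of which 8 were used for the main comparisons and 4 more for the comparisons with *Baf180* and *Brd9* KD. The deposited values are raw read counts per gene, which the authors made by aligning paired-end reads from stranded, rRNA-depleted libraries to mm10 with STAR, keeping unique alignments, and counting with featureCounts. Tables of the authors' own comparisons (fold changes and p-values) were not used. Samples were grouped by their titles, because the treatment tag in the labels disagrees with them.

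Counts were normalized by TMM and tested with edgeR 4.0.16 (R 4.3.3, limma 3.58.1) by the quasi-likelihood test after filterByExpr, with Benjamini-Hochberg adjustment over all genes tested and a threshold of 0.05. Each contrast of KD and scr was fitted on its 4 libraries. The difference of the contrasts and the Cu response of each line were fitted on 8. DESeq2 1.42.0, other filters and scalings, a replicate block, GC and length correction, thinning and leaving out each library were alternatives. The test was checked on counts simulated with 100 changed genes at each fold. The Cu contrast recovered 44% of 1.5-fold and 83% of 2-fold changes, and the NT contrast 52% and 86%. For the difference of the contrasts the values were 15% and 54%. Unchanged genes made up 4.51%, 6.76% and 1.43% of the calls. CPM are TMM-normalized over 8 libraries unless stated. Totals were 16520069 to 44746359 counts.

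The stress genes and lists were chosen with earlier results of these data known. Named genes are the target and SWI/SNF subunits, and in each list the 2 largest called rises and falls. The 10 stress genes with the smallest p for a difference in each direction were added. So were the 5 of each single-contrast class with the largest difference, and the 5 largest called rises and falls over all genes. The picks of largest rises and falls were limited to a mean of at least 20 CPM and no overlap. Further genes were fixed by name, some of metal handling and others not, and several were named by the study from these data. Other named genes are members of a class that is listed whole. Some genes that this rule picks are not reported here. With 2 replicates a group, an exact permutation test of a single gene cannot go below p = 0.333, so only the fits across all genes were used.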

Additional observations from a re-analysis of the deposited data

Results flagged for a closer look

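The test of the difference between the Cu and NT contrasts picked out 5 features, all with a higher *Baf250a* KD effect with Cu. The difference on the log2 scale was 11.53 for *Mir6236*, 10.49 for *Gm15564*, 8.15 for *Gm23935*, 6.38 for *Lars2* and 5.78 for *CT010467.1*. *Lars2*, a mitochondrial leucyl-tRNA synthetase, was at 1308 and 627 CPM in scr without Cu and at 34.2 and 29.6 CPM in scr with Cu. In KD it was at 24.3 to 29.1 CPM in 3 of the 4 libraries and at 109 CPM in replicate 1 with Cu. The same 2 scr libraries held 4.68% and 1.66% ribosomal RNA counts. *Mir6236*, *Gm15564*, *Gm23935* and *CT010467.1* are themselves among the features counted there, with *CT010467.1* alone at 4.57% and 1.61%. For these the percentages and the called differences are therefore the same reads. *Lars2* is not in the percentages, but was removed with these features in the setting without ribosomal RNA. The part of ribosomal RNA in the *Lars2* result was not tested.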

How the results depend on the processing

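The count of genes whose KD effect differed with Cu (5) was 14 by DESeq2, 271 with every gene of at least 1 count, 12 with genes averaging 1 or more normalized counts, 2 with 24 or 23 libraries fitted together and 0 without ribosomal RNA features, a setting added after seeing the data that removes all 5 of these features. Stress genes differing (0) became 10 with every gene of at least 1 count. Stress genes called in both contrasts (279) became 182 with a fold change of at least 1.5. Those called with Cu alone (25) became 42, 44 and 41 with 8, 24 and 23 libraries fitted together and 16 with the GC and length correction. Stress genes called for Cu in KD (12) were 23 by DESeq2, 32 with at least 1 count, 22 and 23 with 24 and 23 libraries, and 57 with each line fitted alone. Those called for Cu in scr (1) were 9, 48, 6, 8 and 0 under the same settings, 3 with genes averaging 1 or more and 2 with the GC and length correction. Requiring a fold change of at least 1.5 left 139 stress genes against *Baf180* KD and 182 against *Brd9* KD. The causes were not tested.

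Leaving out 1 library at a time gave 2819 to 8631 DEGs with Cu and 5846 to 9635 without, 1 to 235 genes and 0 to 9 stress genes whose KD effect differed, 158 to 390 stress genes called with Cu, 154 to 325 called in both, 1 to 80 with Cu alone and 26 to 207 without Cu alone. Stress genes called for Cu ranged from 0 to 27 in KD and 0 to 28 in scr, and those called against *Baf180* and *Brd9* KD from 184 to 331 and 310 to 364.

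The replicate numbers were not shown to pair the libraries (correlation of deviations -0.04 between KD and scr with Cu, -0.04 without, 0.26 between scr with Cu and KD without, and 0.14 between KD with Cu and scr without). With a replicate block there were 5737 DEGs with Cu, 8154 without, 286 stress genes called with Cu, and 7 called for Cu in KD. With the numbers of untreated scr crossed (correlation -0.22 as numbered), added after seeing the data, 14 were called in KD and 2 in scr.

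Among named genes 4 values with Cu changed sign with all libraries in use, none of them called: *Smarca4* to -0.11, *Rrm2b* to -0.062 and *Slc31a1* to -0.10 with the GC and length correction, and *Fosb* to -0.059 after thinning. Leaving out 1 library at a time gave -0.028 to 0.22 for *Smarca4*, -0.069 to 0.24 for *Gsr*, -0.16 to 0.31 for *Fosb*, -0.0058 to 0.56 for *Rrm2b*, -0.11 to 0.21 for *Slc31a1*, -0.15 to 0.061 for *Slc39a10* and -0.22 to 0.043 for *Hmga2*, each crossing 0. With 2 replicates a group and scr replicates that differ more than KD replicates, small differences could not be resolved, and which genes fall in a single-contrast class depends on 1 library.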

Other observations

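Cell cycle genes were lower in *Baf250a* KD with Cu. Of 30 S phase genes 15 fell and 2 rose, with a median log2 fold change of -0.39, and without Cu the median was -0.62. Of 30 genes of G2 and mitosis 13 fell and 0 rose (median -0.39, and -0.56 without Cu). Over all genes tested 20% fell and 21.1% rose with Cu.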
